A study of Eriobotrya japonica with 9 samples.

Results

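*EjJAZ8* (Ej00086002), *EjJAZ9* (Ej00034586), *EjJAZ11* (Ej00048876), *EjJAZ12* (Ej00026880) and *EjJAZ13* (Ej00089457) are 5 well-expressed members of the JAZ subfamily in loquat (*Eriobotrya japonica*). They were taken by name and gene identifier from the list of *TIFY* genes that the study identified. They make up 5 of the 16 *EjJAZ* genes, 5 of the 26 *EjTIFY* genes and 5 of the 43996 genes in the expression table. *EjJAZ8* and *EjJAZ9* form 1 of the duplicated pairs that the study lists among segmental duplications, and *EjJAZ11* and *EjJAZ12* form another. *EjJAZ13* is in no listed pair. Their transcripts were measured by RNA-seq in leaves of seedlings in 3 groups of 3 libraries each. The CK plants received water only. The ST plants received water and then 200 mmol/L NaCl, and the MTST plants received 150 µmol/L melatonin, a small indole that is often applied to plants under stress, through the roots before the same 200 mmol/L NaCl. The labels give day 10 for the samples, and no genotype or seedling age. The methods describe the libraries of the water and salt groups as biological replicates, and how many plants went into 1 library is not given in the sources used here. There was no group with melatonin alone, so that a response to melatonin can be read here only in plants that also received salt.

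JAZ proteins are repressors of jasmonate signaling. Through their TIFY motif they recruit co-repressors, and through the Jas motif at their C-terminal end they bind transcription factors such as MYC2 and keep them inactive. When jasmonoyl-isoleucine accumulates, for example after wounding, the F-box receptor COI1 binds the Jas motif, the JAZ protein is degraded and MYC2 is released. In *Arabidopsis thaliana* many *JAZ* genes are themselves targets of MYC2, so that their transcripts rise as the proteins are lost. The annotation deposited with the values places all 5 genes on the KEGG map of plant hormone signal transduction, in the nucleus, among the 44 genes with transcription corepressor activity and among the 516 genes of the response to wounding. Only *EjJAZ8* and *EjJAZ9* of the 5 also carry the term response to jasmonic acid, which 324 genes hold, and a term for protein homodimerization.

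The sequences at hand for these genes are a primer pair for *EjJAZ9* from the qRT-PCR of the study. The primers were not placed on a transcript sequence here, so whether they tell *EjJAZ9* from its duplicate *EjJAZ8* was not tested. Both primers have 22 bases, with a GC content of 36.4% (forward) and 40.9% (reverse). The qRT-PCR itself was not analysed here. The primers are written in lower case from 5′ to 3′.
EjJAZ9_1F: atttacctctctttgcgtttct
EjJAZ9_1R: ttgtttggttggtacttggtag

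The libraries held 13048770 to 14468499 reads. Levels are given as TPM, a transcript abundance that accounts for gene length and library size and was computed from the deposited FPKM. Most genes were higher in ST than in CK on this scale, where the median log2 fold change of the 23641 tested genes was 0.41 for ST against CK, -0.22 for MTST against ST and 0.19 for MTST against CK. With median-of-ratios scaling, in which the typical gene is set to no change, these medians were 0.014, -0.0019 and 0.0086. Both scalings are therefore given for the comparisons between groups, and the comparison of 2 genes within a library depends on neither. Libraries within a group differed beyond sampling noise (mean chi-square per gene 3.11 to 27.2). Of the 28 genes for antenna proteins, the chlorophyll-binding proteins of leaf photosystems, 27 or 28 were above 0 in every library. They held 5.57% to 6.68% of all TPM in CK, 3.22% to 3.58% in ST and 5.15% to 5.26% in MTST, and the part of this shift in the results on *JAZ* genes was not tested. In bulk leaf RNA, fewer cells that express a gene and less of its RNA per cell cannot be told apart.

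The genes of the first pair changed places under salt stress. *EjJAZ8* was the lower partner in all 3 CK libraries, the higher partner in all 3 ST libraries, and close to *EjJAZ9* in the MTST libraries. *EjJAZ8* had 70.6, 74.1 and 42.4 TPM in CK, 132, 108 and 106 TPM in ST, and 40.5, 36.3 and 23.4 TPM in MTST (replicates 1, 2 and 3). Every ST library was thus above every CK library, and every CK library was above every MTST library. *EjJAZ9* had 87.4, 105 and 56.7 TPM in CK, 70.0, 46.3 and 48.8 TPM in ST, and 46.1, 35.9 and 27.5 TPM in MTST. For this gene the highest ST library was above the lowest CK library, while every MTST library was below all others. Under median-of-ratios scaling every ST library was below every CK library, but MTST 1 (45.9) was above ST 2 (39.8).

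The share of *EjJAZ8* in the summed TPM of the pair was 44.7%, 41.4% and 42.8% in the CK libraries, 65.4%, 69.9% and 68.5% in the ST libraries, and 46.8%, 50.3% and 45.9% in the MTST libraries. These are means of 42.9% ± 1.67, 67.9% ± 2.31 and 47.7% ± 2.30 (SD, n = 3 each), and the ranges of the 3 groups do not overlap. As a ratio, *EjJAZ8* stood at 0.706 to 0.808 times *EjJAZ9* in CK, at 1.89 to 2.32 times in ST and at 0.850 to 1.01 times in MTST. The difference of the genes on the log2(TPM + 1) scale differed between the 3 groups (exact permutation test over all assignments of the 9 libraries to 3 groups of 3, p = 0.0036, the smallest it can give). It was -0.40 ± 0.097 in CK, 1.07 ± 0.15 in ST and -0.13 ± 0.13 in MTST (SD, n = 3 each). The change from CK to ST was 1.48 (SE 0.10), that from ST to MTST was -1.20 (SE 0.11), and that from CK to MTST was 0.27 (SE 0.093). Each of these had an exact two-sided p of 0.10, which is the smallest that 3 libraries against 3 allow.

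Behind these shares stood 337 to 558 reads of *EjJAZ8* in CK, 753 to 930 in ST and 189 to 318 in MTST. For *EjJAZ9* there were 1060 to 1859 reads in CK, 762 to 1157 in ST and 523 to 851 in MTST. The gene lengths that the values imply are 789 bases for *EjJAZ8* and 1855 bases for *EjJAZ9*. Which gene of the pair is the higher one in a library rests on these lengths, since *EjJAZ9* had more reads than *EjJAZ8* in every library, whereas the change of the ratio between groups does not. How the counting treated reads that match both genes of a duplicated pair is not given in the sources used here, and such reads could make the genes of a pair look more alike or less alike than they are. The summed TPM of the pair was 145 ± 41.5 in CK, 170.4 ± 27.6 in ST and 69.9 ± 17.9 in MTST (SD, n = 3 each). The CK and ST ranges of this sum overlap, and the MTST range lies below both.

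**Figure D1:**
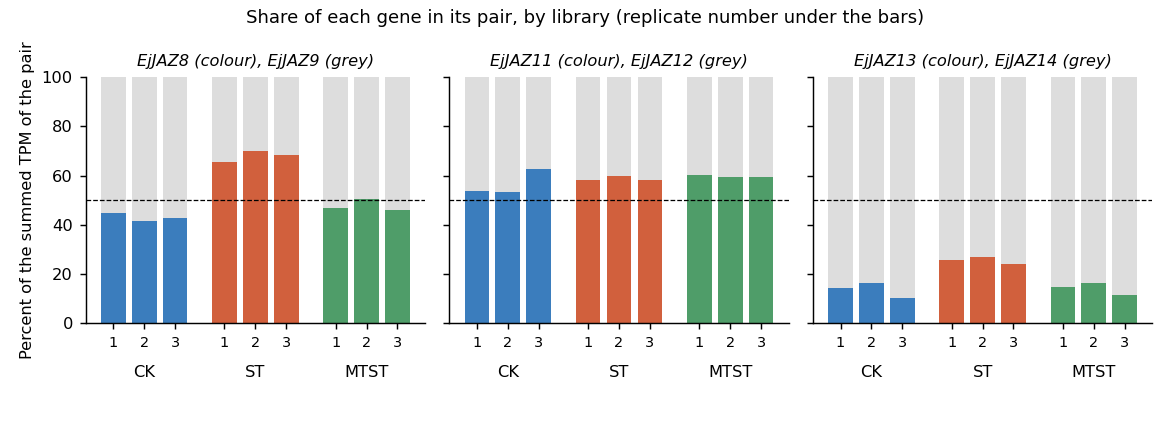
Share of the first gene in the summed TPM of 2 genes (percent, y axis) for each library, with replicate numbers and groups on the x axis, for *EjJAZ8* with *EjJAZ9* (left), *EjJAZ11* with *EjJAZ12* (middle) and *EjJAZ13* with *EjJAZ14* (right); grey is the rest of the pair, and the dashed line marks equal shares. *EjJAZ8* holds 65.4% to 69.9% of its pair in ST and at most 50.3% elsewhere, while *EjJAZ11* stays between 53.5% and 62.5% in all 9 libraries.

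*EjJAZ11* was the most abundant of the 5 genes, and its partner *EjJAZ12* followed it. *EjJAZ11* had 118, 119 and 124 TPM in CK, 267, 181 and 198 TPM in ST, and 158, 156 and 126 TPM in MTST. The 3 CK libraries were nearly equal. On the TPM scale all ST libraries were above all MTST libraries, and these were above all CK libraries. Under median-of-ratios scaling this order did not hold, with MTST 3 (122.0) below CK 1 (135.5) and MTST 2 (160.3) above ST 2 (155.6). *EjJAZ12* had 102, 104 and 74.3 TPM in CK, 191, 121 and 142 TPM in ST, and 105, 106 and 85.4 TPM in MTST. On the TPM scale all ST libraries were again the highest, while CK and MTST overlapped. Under median-of-ratios scaling ST 2 (104.1) was below CK 2 (120.5). The read numbers were 1712 to 3592 for *EjJAZ11* and 869 to 1976 for *EjJAZ12*, so that sampling noise is small in this pair.

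*EjJAZ11* was above *EjJAZ12* in 9 of 9 libraries, by 0.48 ± 0.17 on the log2(TPM + 1) scale (SD, n = 9; exact two-sided sign-flip permutation test, p = 0.0039, the smallest it can give). Its share of the pair was 56.6% ± 5.10 in CK, 58.8% ± 0.973 in ST and 59.7% ± 0.268 in MTST (SD, n = 3 each). The difference between the genes did not pass the test between groups (exact permutation test, p = 0.44). Its change was 0.13 (SE 0.18) from CK to ST, 0.05 (SE 0.034) from ST to MTST and 0.18 (SE 0.17) from CK to MTST, with exact p-values of 0.40, 0.30 and 0.40. The outcome turns on CK replicate 3, in which *EjJAZ11* held 62.5% of the pair, compared with 53.8% and 53.5% in the other CK libraries. Without that library the exact permutation p between groups was 0.011. The summed TPM of the pair was 213 ± 13.5 in CK, 367 ± 81.5 in ST and 245 ± 29.7 in MTST (SD, n = 3 each). *EjJAZ10*, which stands in the same clade of the published tree as these genes, had 0 reads in all CK and MTST libraries and 0 to 3 reads in ST.

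*EjJAZ13* had 89.4, 108 and 52.5 TPM in CK, 169, 129.7 and 112 TPM in ST, and 60.8, 66.5 and 32.0 TPM in MTST. On the TPM scale all ST libraries were above all others, and CK and MTST overlapped. Under median-of-ratios scaling ST and CK overlapped too, with ST 3 (95.3) below CK 2 (125.4). Its neighbour in the published tree, *EjJAZ14*, is no member of the group of 5 and was the second most abundant *EjJAZ* gene in every library, with 517 ± 52.6 TPM in CK, 398 ± 76.5 in ST and 312 ± 56.5 in MTST (SD, n = 3 each). The share of *EjJAZ13* in the sum of both was 13.6% ± 3.03 in CK, 25.5% ± 1.42 in ST and 14.2% ± 2.55 in MTST (SD, n = 3 each). This pair was chosen for testing after its values were seen, so its test between groups is only a description (exact permutation test, p = 0.021). Its within-library difference changed by 1.14 (SE 0.23) from CK to ST, -1.04 (SE 0.18) from ST to MTST and 0.10 (SE 0.28) from CK to MTST. *EjJAZ13* thus moved against its more abundant neighbour in the way *EjJAZ8* moved against *EjJAZ9*, with higher shares in all ST libraries than in any other.

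**Figure D2:**
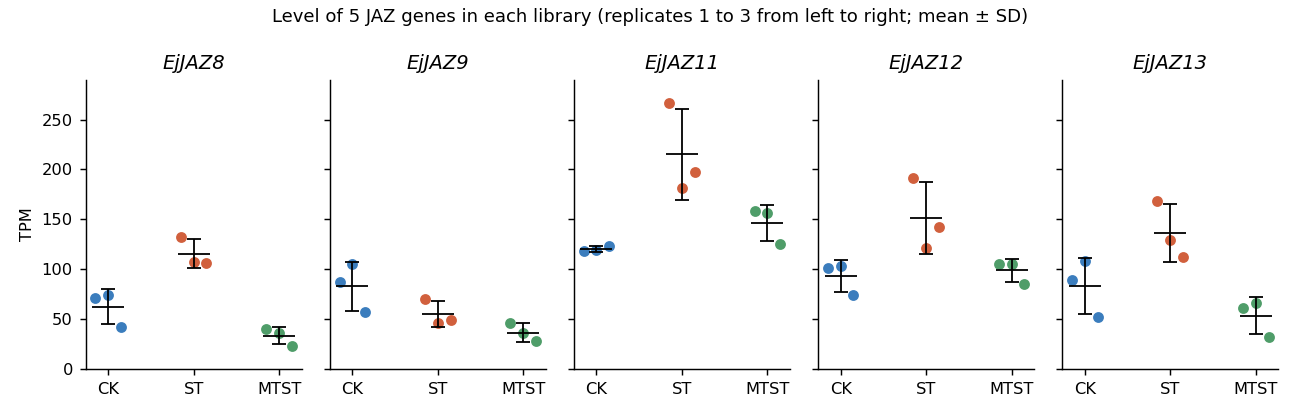
TPM (y axis, linear from 0) of each of the 5 genes in the 9 libraries, grouped by CK, ST and MTST on the x axis; points are libraries with replicates 1 to 3 from left to right, long bars are group means and short bars mark 1 SD on either side. *EjJAZ8*, *EjJAZ11*, *EjJAZ12* and *EjJAZ13* are highest in ST, whereas the mean of *EjJAZ9* is highest in CK with 83.0 TPM.

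The order of the group means was *EjJAZ11*, *EjJAZ12*, *EjJAZ13*, *EjJAZ9* and *EjJAZ8* in CK and in MTST, and the last places were exchanged in ST. In CK the means ran from 120.3 TPM down to 62.4 TPM, and only *EjJAZ11* and *EjJAZ12* had ranges that did not overlap with each other among neighbours in the order. In ST they ran from 215 to 55.0 TPM, and only *EjJAZ8* and *EjJAZ9* were apart. In MTST they ran from 147 to 33.4 TPM, and both *EjJAZ11* from *EjJAZ12* and *EjJAZ12* from *EjJAZ13* were apart. All other neighbours in these orders overlapped. Among the genes above 0 in a library, *EjJAZ11* lay at percentiles 95.3 to 98.2, *EjJAZ12* at 92.1 to 97.3, *EjJAZ13* at 79.5 to 96.8, *EjJAZ8* at 72.8 to 95.5 and *EjJAZ9* at 76.4 to 94.5.

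Compared with water, salt raised 3 of the 5 genes on the TPM scale and lowered none at an adjusted p of at most 0.05 (limma), while 4 were higher and 1 was lower at an unadjusted p under 0.05, and limma-voom on reads recovered from the FPKM values called 3 higher and 1 lower. On this scale 52.8% of all tested genes were raised and 10.6% were lowered, so that the count for the 5 genes is near the background. *EjJAZ8* rose 1.85-fold, from 62.4 ± 17.4 to 115 ± 14.6 TPM (SD, n = 3 each; change on the log2 scale 0.91, SE 0.23, limma adjusted p = 0.0065). *EjJAZ11* rose 1.79-fold, from 120.3 ± 2.87 to 215 ± 45.7 TPM (0.81, SE 0.14, limma adjusted p = 0.00066). *EjJAZ12* rose 1.63-fold, from 93.2 ± 16.4 to 151 ± 35.9 TPM (0.68, SE 0.18, limma adjusted p = 0.0069). None of these 3 rises passed with median-of-ratios scaling, where the values were 0.47, 0.37 and 0.24 (limma adjusted p = 0.14, 0.056 and 0.30).

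*EjJAZ13* had a mean of 83.2 ± 28.2 TPM in CK and 137 ± 29.0 TPM in ST and did not pass under either scaling (0.75, SE 0.31, adjusted p = 0.053; 0.30 and adjusted p = 0.46 with median-of-ratios scaling, limma). On the TPM scale its ST and CK libraries did not overlap, as was the case upward for 56.0% of all tested genes. On that scale it also passed without CK replicate 2 (0.96) or MTST replicate 3 (0.75). *EjJAZ9* went the other way, with 83.0 ± 24.5 TPM in CK and 55.0 ± 13.0 TPM in ST (-0.56, SE 0.25, limma adjusted p = 0.068). With median-of-ratios scaling it fell by 1.01 (limma adjusted p = 0.0077), where 22.8% of tested genes rose and 23.4% fell, and on the TPM scale it passed without CK replicate 3 (-0.81) or ST replicate 1 (-0.75). Within the distribution of all log2 fold changes on the TPM scale, *EjJAZ9* lay at percentile 7.83 and the other 4 genes between percentiles 70.1 and 81.2. The 5 genes had a median log2 fold change of 0.75, beside 0.41 for all tested genes.

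In the plants given melatonin before salt, the means of all 5 genes were below those in salt alone. On the TPM scale the libraries of the 2 groups did not overlap, a pattern seen downward for 40.9% of all tested genes. Under median-of-ratios scaling this held for *EjJAZ8* and *EjJAZ13*, while *EjJAZ9*, *EjJAZ11* and *EjJAZ12* overlapped. The difference passed the test on the TPM scale for 4 of the 5 (limma). At this threshold 29.8% of all tested genes were lowered and 7.90% raised. *EjJAZ8* was 3.46-fold lower in MTST than in ST, with 33.4 ± 8.90 TPM compared with 115 ± 14.6 TPM (SD, n = 3 each; change on the log2 scale -1.79, SE 0.23, limma adjusted p = 0.00049). *EjJAZ13* was 2.57-fold lower, with 53.1 ± 18.5 TPM compared with 137 ± 29.0 TPM (-1.39, SE 0.31, limma adjusted p = 0.0063). These 2 genes also fell with median-of-ratios scaling, with values of -1.55 and -1.16 (limma adjusted p = 0.0013 and 0.021), where 13.7% of tested genes fell and 15.1% rose. They lay at percentiles 1.96 and 3.65 of all log2 fold changes of this comparison on the TPM scale.

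*EjJAZ11* and *EjJAZ12* fell less, to 147 ± 18.2 and 98.8 ± 11.6 TPM in MTST (log2 fold changes -0.54, SE 0.14, and -0.59, SE 0.18; limma adjusted p = 0.014 and 0.025). With median-of-ratios scaling these falls did not pass (-0.30 and -0.36, limma adjusted p = 0.14 and 0.16). Without MTST replicate 3 neither passed on the TPM scale (-0.43 and -0.49), and *EjJAZ12* also did not pass without ST replicate 1 (-0.41) or ST replicate 3 (-0.63). *EjJAZ9* had 36.5 ± 9.28 TPM in MTST and did not pass (-0.59, SE 0.25, limma adjusted p = 0.086). The exceptions were the fit without CK replicate 3 and that with a replicate block (limma adjusted p = 0.042 and 0.028), both of which left the value at -0.59. The 5 genes had a median log2 fold change of -0.59, beside -0.22 for all tested genes.

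Compared with the water control, 2 of the 5 genes were lower in the plants given melatonin and salt, and both form the first pair. *EjJAZ9* fell 2.27-fold, from 83.0 to 36.5 TPM (log2 fold change -1.15, SE 0.25, limma adjusted p = 0.0045), and *EjJAZ8* fell 1.87-fold, from 62.4 to 33.4 TPM (-0.88, SE 0.23, limma adjusted p = 0.013). At this threshold 10.9% of all tested genes were lowered and 29.7% were raised. In both genes every MTST library was below every CK library, as was the case for 15.3% of all tested genes. Both falls passed with median-of-ratios scaling (-1.36 and -1.09, limma adjusted p = 0.0023 and 0.0062), where 18.7% of tested genes fell. That of *EjJAZ8* did not pass without CK replicate 1, CK replicate 2 or MTST replicate 3 (-0.77, -0.73 and -0.65).

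The other genes did not pass against water. *EjJAZ13* had a log2 fold change of -0.64 (SE 0.31, limma adjusted p = 0.12), with overlapping libraries, and passed only without CK replicate 3 among the settings that leave out 1 library (-0.94). *EjJAZ11* had 0.27 (SE 0.14, limma adjusted p = 0.14), and it passed without ST replicate 1 at the same value. On the TPM scale its MTST libraries were all above its CK libraries, as was the case for 39.7% of all tested genes. Under median-of-ratios scaling its MTST and CK libraries overlapped. *EjJAZ12* had 0.09 (SE 0.18, limma adjusted p = 0.71), -0.12 with median-of-ratios scaling and -0.061 without CK replicate 3. The 2 duplicated pairs lay apart in this comparison, *EjJAZ8* and *EjJAZ9* at percentiles 4.18 and 2.30 of all log2 fold changes, and *EjJAZ11* and *EjJAZ12* at percentiles 57.9 and 41.1. The 3 comparisons share libraries, so that the fold changes of a gene are not independent of each other.

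**Figure D3:**
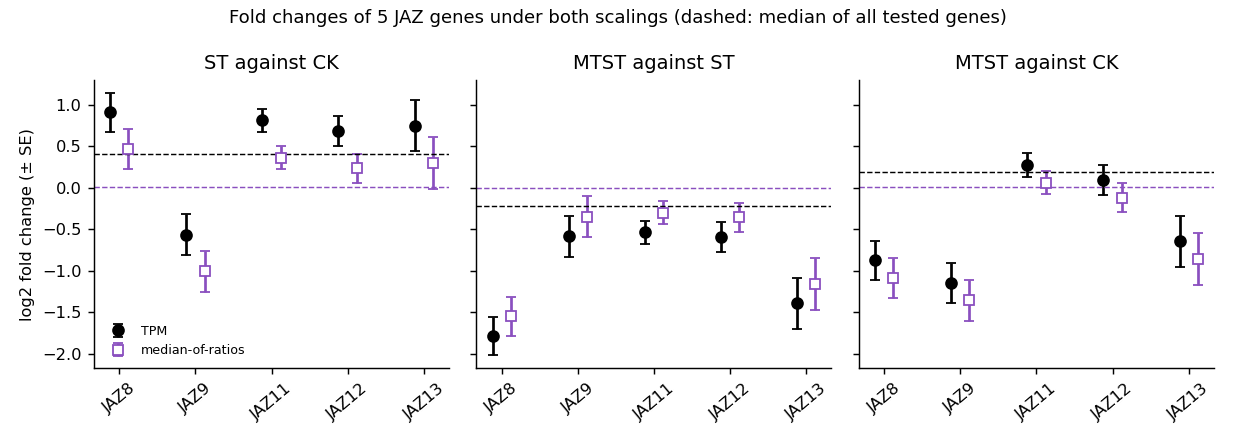
Log2 fold change (y axis, with 1 SE on either side) of the 5 genes (x axis) for ST against CK, MTST against ST and MTST against CK, with TPM (black circles) and with median-of-ratios scaling (purple squares); dashed lines are the median of all tested genes under each scaling. *EjJAZ8* falls to -1.79 and *EjJAZ13* to -1.39 in MTST against ST, and *EjJAZ9* alone is below 0 in ST against CK.

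Within a group the genes varied together, and 3 libraries stood at the edge. ST replicate 1 was the highest of its group for 5 of the 5 genes, as it was for 44.6% of all tested genes. MTST replicate 3 was the lowest of its group for 5 of the 5 genes (26.4% of all tested genes), and CK replicate 3 was the lowest for 4 of the 5, all but *EjJAZ11* (41.7% of all tested genes). All 3 held for 4 of the 5 genes and for 3.98% of all tested genes. With median-of-ratios scaling MTST replicate 3 was the lowest for 34.9% of all tested genes, and all 3 held for 4.73%. The pattern was read off these same 5 genes, so setting their count beside these shares is a description and no test. As a description over 9 libraries, the deviations from the group means correlated with r = 0.94 for *EjJAZ8* and *EjJAZ9*, 0.96 for *EjJAZ8* and *EjJAZ13*, and 0.75 for *EjJAZ11* and *EjJAZ12*. Each such point shares its library, and so the depth and scaling of that library, between both genes. Within groups *EjJAZ8* and *EjJAZ9* therefore went up and down together, while their ratio differed between groups.

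With these 3 libraries left out together, on the TPM scale the log2 fold change of *EjJAZ9* for ST against CK was -0.995, and for MTST against CK that of *EjJAZ11* was 0.40 and that of *EjJAZ13* was -0.62. The libraries were picked by the values of these same genes, so that these numbers are a description with no test.

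**Figure D4:**
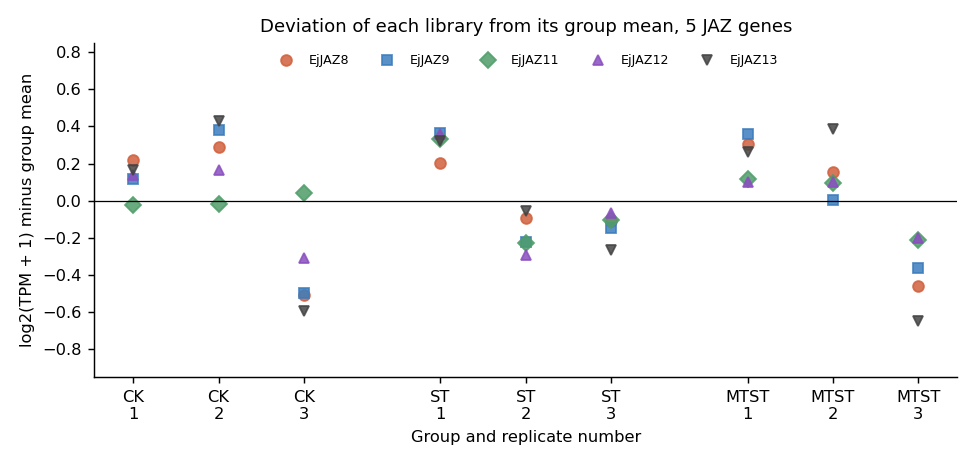
Deviation of each library from the mean of its group on the log2(TPM + 1) scale (y axis) for the 5 genes (symbols), with the 9 libraries by group and replicate number on the x axis; the line marks the group mean. All 5 genes lie above it in ST 1 and below it in MTST 3, and 4 of the 5 lie below it in CK 3.

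The genes most like each member over the 9 libraries were sought by Pearson's r of log2(TPM + 1) among 17460 tested genes with a mean TPM of at least 5. Within the *TIFY* family, *EjJAZ8* and *EjJAZ13* were each other's closest match (r = 0.97), although they are no duplicated pair. For *EjJAZ13* no other candidate was closer, and for *EjJAZ8* there were 4. The duplicate partner was the closest *TIFY* gene only for *EjJAZ12*, whose match was *EjJAZ11* (r = 0.91), while *EjJAZ11* was closest to *EjJAZ4* (0.94) and *EjJAZ9* to *EjJAZ14* (0.97). Between the duplicates *EjJAZ8* and *EjJAZ9*, r was 0.58.

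Outside the family, the closest gene to *EjJAZ8* was Ej00082372 (r = 0.98), which is placed on the map of alpha-linolenic acid metabolism, the pathway from which jasmonic acid is made. It had 155 ± 12.9 TPM in CK, 233 ± 20.6 in ST and 118 ± 14.7 in MTST (SD, n = 3 each). The closest to *EjJAZ9* was Ej00024251 (r = 0.98), with 78.7 ± 26.6, 37.3 ± 10.3 and 23.8 ± 6.48 TPM (SD, n = 3 each), so that its means had the same order as those of *EjJAZ9*. The closest to *EjJAZ11* was Ej00061769 (r = 0.99), with 9.47 ± 1.48, 33.7 ± 12.3 and 15.6 ± 2.51 TPM (SD, n = 3 each). The closest to *EjJAZ12* was Ej00049298 (r = 0.99), with 14.1 ± 2.59, 20.3 ± 3.53 and 14.9 ± 0.991 TPM (SD, n = 3 each). Like Ej00024251, it has no KEGG map and no GO molecular function term in the table. Each of these correlations has an n of 9 libraries that both genes share. Each gene was picked for the highest r outside the family among the 17460 candidates, so that a high r is partly set by the choice. A link in function was not tested.

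Together the 5 genes summed to 442 ± 82.9 TPM in CK, 674 ± 135 TPM in ST and 368 ± 64.7 TPM in MTST (SD, n = 3 each). The sum over all 16 *EjJAZ* genes was 2464 ± 374 TPM in CK, 2443 ± 397 TPM in ST and 1934 ± 267 TPM in MTST (SD, n = 3 each). The CK range of this sum (2037 to 2737 TPM) overlaps those of ST (2198 to 2901 TPM) and MTST (1647 to 2175 TPM). These sums were made on the TPM scale only, and their differences between groups depend on the scaling. The share of the 5 genes in the *EjJAZ* transcripts was 17.2% to 18.6% in CK, 26.3% to 28.6% in ST and 17.8% to 20.2% in MTST, with no overlap between ST and either other group.

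Of the other 11 *EjJAZ* genes, 10 were tested. In ST against CK 3 of them were higher and 1 lower on the TPM scale (limma; 52.8% and 10.6% of all tested genes), but 2 were higher and 6 lower with median-of-ratios scaling (22.8% and 23.4% of all tested genes), so that the balance between higher and lower turned with the scaling. Their median log2 fold change was -0.06 with TPM and -0.50 with median-of-ratios scaling. In MTST against ST 0 were higher and 3 (30.0%) lower under both scalings (limma; also 0 higher at an unadjusted p under 0.05 and 0 by limma-voom). On the TPM scale this is close to the 29.8% of all tested genes that were lower, and 7.90% were higher. With median-of-ratios scaling 13.7% of all tested genes were lower and 15.1% higher. Of the 10 genes of the other subfamilies, 6 were higher and 2 lower in ST than in CK with TPM (52.8% and 10.6% of all tested genes). With median-of-ratios scaling 1 was higher and 3 lower (22.8% and 23.4% of all tested genes). In MTST against ST 0 of these 10 passed with TPM (limma; 1 higher and 1 lower at an unadjusted p under 0.05, and 1 higher by limma-voom), beside 7.90% of all tested genes higher and 29.8% lower. With median-of-ratios scaling 3 were higher and 0 lower (15.1% and 13.7% of all tested genes).

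The rest of the hormone pathway was described by the annotation in the table, without the *TIFY* genes. Of the 243 tested genes on the map of plant hormone signal transduction, 138 were higher and 27 lower in ST than in CK with TPM (limma), and 74 and 51 with median-of-ratios scaling. In MTST against ST 17 were higher and 75 lower with TPM, shares near those of all tested genes (7.90% and 29.8%), and 37 were higher and 37 lower with median-of-ratios scaling. Of the 90 tested genes of jasmonic acid mediated signaling, 56 (62.2%) were higher and 9 (10.0%) lower in ST than in CK with TPM. The shares of all tested genes were 52.8% and 10.6%. With median-of-ratios scaling 28 (31.1%) were higher and 19 (21.1%) lower, beside 22.8% and 23.4% of all tested genes. In MTST against ST 5 (5.56%) were higher and 41 (45.6%) lower with TPM, beside 7.90% and 29.8% of all tested genes. With median-of-ratios scaling 11 (12.2%) were higher and 21 (23.3%) lower, beside 15.1% and 13.7% of all tested genes. Of the 211 tested genes of the response to jasmonic acid, 114 (54.0%) were higher and 33 (15.6%) lower in ST than in CK with TPM. The share of higher genes was thus near the 52.8% of all tested genes, of which 10.6% were lower. With median-of-ratios scaling 63 (29.9%) were higher and 63 (29.9%) lower, beside 22.8% and 23.4% of all tested genes. In MTST against ST 13 (6.16%) of them were higher and 88 (41.7%) lower with TPM (7.90% and 29.8% of all tested genes). With median-of-ratios scaling 27 (12.8%) were higher and 51 (24.2%) lower (15.1% and 13.7% of all tested genes).

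Genes of jasmonic acid synthesis were lower in MTST than in ST more often than they were higher under both scalings. Of the 26 tested genes of the biosynthetic process, 16 (61.5%) were lower and 0 higher with TPM (limma; 18 and 0 at an unadjusted p under 0.05, and 16 and 0 by limma-voom), beside 29.8% of all tested genes lower. With median-of-ratios scaling 14 (53.8%) were lower and 0 higher, beside 13.7% of all tested genes lower. Their median log2 fold change was -0.64 with TPM, beside -0.22 for all tested genes, and -0.42 with median-of-ratios scaling. In ST against CK 16 (61.5%) were higher and 2 (7.69%) lower with TPM, beside 52.8% and 10.6% of all tested genes. With median-of-ratios scaling 11 (42.3%) were higher and 4 (15.4%) lower, beside 22.8% and 23.4% of all tested genes. On the map of alpha-linolenic acid metabolism, 26 of 50 tested genes (52.0%) were higher and 7 lower in ST than in CK with TPM, no more than the 52.8% of all tested genes, and 18 were higher and 14 lower with median-of-ratios scaling. In MTST against ST 5 were higher and 23 (46.0%) lower with TPM, and 6 higher and 17 (34.0%) lower with median-of-ratios scaling. These counts are a description, and no test of the lists was made.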

How the data were processed

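RNA-seq of loquat leaves was analysed from 9 libraries, 3 each of CK, ST and MTST, which were grouped by their labels. According to the methods, the authors removed adapters and poor bases with Trim-Galore and Trimmomatic, mapped the reads to the JFZ genome by HISAT2 (also named in the submitters' processing notes), counted them per gene with Rsubread and expressed them as FPKM. The values deposited by the authors are FPKM per gene. Not given in the sources used here are tool versions, strand settings and the treatment of reads shared by several genes. The deposited table also holds group means and the authors' own DESeq2 comparisons of the 3 groups (log2 fold change, p-value and call), none of which was used.

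FPKM was rescaled to TPM. Low FPKM values were whole multiples of the value of 1 read, and a gene length and whole reads were recovered for 31458 of 31458 genes above 0 (tolerance 1e-05 reads, lengths of 60 to 20000 bases searched), or 99.979% to 99.984% of library totals of 13048770 to 14468499. A gene with few reads could have its length and reads off by a common factor. Expression was tested with limma 3.58.1 in R 4.3.3 on log2(TPM + 1), which understates changes of genes with low values, with an intensity trend in the empirical Bayes step and 1 fit of all 9 libraries. The 23641 genes that reached a TPM of 1 in 3 or more of the 9 libraries were fitted (5 of the 5 members), and p-values were adjusted over all of them by the Benjamini-Hochberg method with a threshold of 0.05. Fold changes given as "fold" are ratios of mean TPM. Pairs were compared within libraries by exact permutation tests. The fit and the pair tests were run on simulated data as a check of the code. The simulated libraries were independent and their spread was not matched to these genes, so error rates in these data were not tested. Figures were drawn with matplotlib 3.10.9 in Python 3.11.15, with pandas 2.3.3 and numpy 2.4.6.

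The alternatives were a pseudocount of 0.1, no filter, FPKM, median-of-ratios scaling, limma-voom on the recovered reads, a fit of only the groups compared, a replicate block and leaving out each library. Leaving out 3 libraries together and the pair of *EjJAZ13* and *EjJAZ14* were added after the data were seen. By the rule for named genes, the 5 members have full statistics, *EjJAZ10* and *EjJAZ14* have levels, the *TIFY* gene most like each member is named, and identifiers are printed for 4 most similar genes outside the family. The members, lists and tests were chosen with earlier results of these data known. The table gives GO and KEGG terms but no gene names, and the names of the *TIFY* genes came from the study's list.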

Additional observations from a re-analysis of the deposited data

How the results depend on the processing

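The within-library changes of *EjJAZ8* against *EjJAZ9* kept their direction under every alternative run for them, and their exact p cannot reach the threshold with 3 libraries against 3. The test between groups, which can, gave exact permutation p-values of 0.0036 to 0.028 over its alternatives. With median-of-ratios scaling the values past the threshold on the TPM scale that no longer passed were those of *EjJAZ8* (0.47), *EjJAZ11* (0.37) and *EjJAZ12* (0.24) for ST against CK, and of *EjJAZ11* (-0.30) and *EjJAZ12* (-0.36) for MTST against ST. *EjJAZ9* passed for ST against CK (-1.01), and *EjJAZ12* changed sign for MTST against CK (-0.12, adjusted p = 0.64 from limma). *EjJAZ9* also passed for ST against CK with FPKM as deposited (-0.63) and with limma-voom (-0.65), and *EjJAZ13* with only the 2 groups compared (0.75). Same-numbered libraries had correlations of their deviations of -0.15 to 0.083, with 0 of 9 over 0.1, so the numbers were not taken as pairs. A replicate block left the values as they were, and with it *EjJAZ9* passed for ST against CK (-0.56) and MTST against ST (-0.59), and *EjJAZ13* for ST against CK (0.75) and MTST against CK (-0.64). With CK 3, ST 1 and MTST 3 out, *EjJAZ9* had -0.995 for ST against CK, and *EjJAZ11* and *EjJAZ13* had 0.40 and -0.62 for MTST against CK. Those libraries were picked by the values of these genes, which narrows the spread by construction, so no call is read from them.

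Leaving out 1 library gave ST against CK ranges of -0.81 to -0.37 for *EjJAZ9* (passing without CK 3 or ST 1) and 0.45 to 0.96 for *EjJAZ13* (passing without CK 2 or MTST 3). For MTST against ST the ranges were -0.76 to -0.40 for *EjJAZ9* (passing without CK 3), -0.65 to -0.37 for *EjJAZ11* and -0.74 to -0.41 for *EjJAZ12*. For MTST against CK they were -1.13 to -0.65 for *EjJAZ8*, 0.22 to 0.38 for *EjJAZ11* (passing without ST 1), -0.061 to 0.19 for *EjJAZ12* (below 0 without CK 3, -0.061) and -0.94 to -0.32 for *EjJAZ13*. The between-group sum of squares of the *EjJAZ11* and *EjJAZ12* difference was 0.010 to 0.17. The cause of these changes was not tested, except that a fit of fewer libraries has fewer degrees of freedom. The 3 libraries per group, reads shared between duplicates and the lengths implied by FPKM limit these values, and sampling noise is small at 189 reads or more for each of the 5 genes.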
